A study of Mus musculus with 4 samples.

Results

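Expression of 8 ligands of the tumour necrosis factor (TNF) superfamily was followed in mouse splenic CD4 T cells after 6 h of stimulation: Tnf, Lta, Ltb, Tnfsf8, Tnfsf11, Cd40lg, Tnfsf14 and Fasl. They were chosen by symbol, as 8 of the 32285 genes in the count matrices. CD3+CD4+ T cells had been sorted from the spleens of C57BL6/J mice and cultured for 6 h with Dynabeads carrying anti-CD3 and anti-CD28 antibodies, which together stand in for antigen and costimulation. Droplet single-cell RNA sequencing with 10x 3′ chemistry then gave 4 libraries. A female and a male library were labelled Irf5-/- (knockout; the deleted stretch is not given), and a female and a male library were labelled wild type (WT). All 4 libraries had been stimulated, so there was no unstimulated control. The labels give no age and do not say how many mice entered a library, and p-values below therefore measure the spread between libraries, which may be technical.

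TNF superfamily ligands are made mostly as trimeric membrane proteins, some of which are shed, and they signal by clustering receptors that recruit TRAF adaptors or death domain proteins. In CD4 T cells, CD40 ligand (Cd40lg) licenses B cells and dendritic cells, RANKL (Tnfsf11) acts on osteoclast precursors and dendritic cells, and Fas ligand (Fasl) triggers apoptosis through Fas. Lymphotoxin alpha (Lta) is secreted as a homotrimer that binds TNF receptors, and it joins lymphotoxin beta (Ltb) in a membrane heterotrimer that binds Ltbr, a receptor needed for lymphoid organ structure. CD30 ligand (Tnfsf8) binds Tnfrsf8, and LIGHT (Tnfsf14) binds Tnfrsf14 and Ltbr.

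Cells were kept with at least 2000 UMIs (unique molecular identifiers, each counting a captured RNA molecule), at least 500 genes and at most 10% mitochondrial UMIs. This left 19100 cells, of which 18966 were CD4 T-like: 6125 and 6509 in the female and male knockout-labelled libraries, and 1794 and 4538 in the female and male wild-type-labelled libraries. Lists of 4 values below follow that order. Cd3e was at 166 to 203 CPM (UMIs scaled to a common library total), Cd4 at 45.5 to 54.1 CPM and Cd8a at no more than 0.320 CPM. Median depth was 5082, 6720, 8375 and 9640 UMIs per cell, lower in both knockout-labelled libraries. The female wild-type-labelled library stood apart, with the fewest cells and 36.2% of its UMIs in droplets under 200 UMIs. Irf5 went against the labels, with 8.47 and 8.94 CPM under the knockout label and 0.960 and 0.958 CPM under the wild-type label. The deleted stretch is not given, so it is not known whether these 3′ tags lie outside it, and the labels could not be checked. Groups are called by their labels throughout, and the direction of every genotype comparison rests on them. Pairs of libraries shared 2 to 14 cell barcodes, at most 0.551% of the smaller library.

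Of the 8 genes, 4 lie on chromosome 17, and 3 of them are neighbours (GRCm38 coordinates, GENCODE M21). Ltb (chr17:35194439-35196320, plus strand) and Tnf (chr17:35199381-35202007, minus strand) end 3060 bases apart, and Lta (chr17:35203165-35205351, minus strand) ends 1157 bases before the start of Tnf. The whole Ltb to Lta stretch covers 10913 bases. Tnfsf14 is on the same chromosome at chr17:57189492-57194177 (minus strand). The other ligands are Tnfsf8 (chr4:63831308-63861347, minus strand), Tnfsf11 (chr14:78277445-78308043, minus strand), Cd40lg (chrX:57212143-57224042, plus strand) and Fasl (chr1:161780689-161788495, minus strand). All are protein-coding, and none overlaps an annotated gene on the opposite strand.

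Promoter sequences (RefSeq, GRCm38.p6) were matched for 7 of the 8 ligands, Cd40lg being the exception. The 250 bases before the start were searched on both strands for TGGAAA, a core of sites bound by NFAT, for TGANTCA, an AP-1 site, and for the NF-kB site by its usual consensus. These factors act downstream of CD3 and CD28. Of 32851 promoters of the same length, 18.6% held the NFAT letters, 6.75% the AP-1 letters and 7.25% the NF-kB consensus. The promoters of the 3 neighbours are shown because their RNAs behaved differently below, and that of Tnfsf14 because it held matches to 2 of the motifs. Capitals mark matches, and each sequence runs 5′ to 3′ on the gene's strand up to the annotated start (Tnf chr17:35202008-35202257, Lta chr17:35205352-35205601, Ltb chr17:35194257-35194438, Tnfsf14 chr17:57194182-57194431).
Tnf: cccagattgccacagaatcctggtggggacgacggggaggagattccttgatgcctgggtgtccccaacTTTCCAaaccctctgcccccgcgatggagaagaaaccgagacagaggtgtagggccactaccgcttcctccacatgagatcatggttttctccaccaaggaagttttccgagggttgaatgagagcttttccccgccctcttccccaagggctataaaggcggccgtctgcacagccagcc
Lta: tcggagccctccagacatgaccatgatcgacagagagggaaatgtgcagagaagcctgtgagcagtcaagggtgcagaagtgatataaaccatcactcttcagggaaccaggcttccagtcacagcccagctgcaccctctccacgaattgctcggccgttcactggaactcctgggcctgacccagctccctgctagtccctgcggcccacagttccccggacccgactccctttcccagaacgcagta
Ltb: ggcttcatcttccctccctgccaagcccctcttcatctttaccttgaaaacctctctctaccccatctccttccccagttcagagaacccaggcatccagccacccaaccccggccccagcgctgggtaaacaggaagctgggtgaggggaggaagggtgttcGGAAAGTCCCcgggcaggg
Tnfsf14: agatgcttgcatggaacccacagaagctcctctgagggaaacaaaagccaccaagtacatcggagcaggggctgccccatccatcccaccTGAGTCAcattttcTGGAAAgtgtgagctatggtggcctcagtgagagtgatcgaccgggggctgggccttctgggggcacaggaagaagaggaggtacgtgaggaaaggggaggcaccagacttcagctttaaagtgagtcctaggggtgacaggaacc
The Tnf promoter had an NFAT match beginning 181 bases before the start, in the reverse orientation. Ltb had an NF-kB match, also in the reverse orientation, beginning 87 bases before the RefSeq start. That start lies 68 bases inside the longer GENCODE gene, and the printed stretch ends where that gene begins. Tnfsf14 had an AP-1 match 160 bases and an NFAT match 146 bases before its start. No match was found in these windows for Lta, Tnfsf8, Tnfsf11 and Fasl.

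Cells were grouped into 14 clusters without using the 8 ligands, other family ligands, Irf5 or sex-specific genes, so ligand levels by cluster were not set by the clustering genes themselves. A resting naive-like cluster (3743 cells) had S1pr1 and Il7r among its leading genes. There were 3 early activated-like clusters: an Il2-led cluster (2176 cells; leading genes Il2, Sytl3, Tnfsf11, Ndrg1 and Id3), an Nr4a2-led cluster (1973 cells; Nr4a2, Tbx21, Atf3, Nfkbid and Irf8) and an Egr3-led cluster (898 cells; Egr3, Cxcl10, Egr1, Csrnp1 and Zfp36). Together they were 24.9% to 30.04% of the CD4 T-like cells of a library. Others were regulatory-like (793 cells, with Foxp3), memory or effector-like (688 cells, led by Gpm6b, with the markers Ahnak and Maf), innate-like with Zbtb16 (332 cells), interferon-responding-like (153 cells) and mostly marked doublets (237 cells). Another 4 clusters did not meet the full naming rule and are called by leading genes: Phlda3 and Itm2a (2680 cells), Hk2 and Tmem97 (2541 cells), Filip1l and Trps1 (2252 cells) and Resf1 and Trat1 (500 cells). The last had 3 resting naive markers (Ccr7, Klf2 and Tcf7) among its 30 leading genes but none among the first 10. A cluster of other cells (134 cells) was left out. The female wild-type-labelled library had 41 regulatory-like and 30 innate-like cells, so its values there are the least precise.

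Ligands were not all held by the same state. Tnf, Tnfsf11, Cd40lg and Lta were high in early activated-like cells, Tnfsf8 in memory or effector-like cells, Fasl and Tnfsf14 in innate-like cells, and Ltb in resting naive-like cells. Against resting naive-like cells, 6 of the 8 ligands were at least 2-fold higher in early activated-like cells in all 4 libraries, and 0 were at least 2-fold lower. Among all 12531 genes tested, 12.9% were higher by that rule and 21.5% were lower. States come from the same cells, so no test was made between them. CPM are scaled within a library and are not corrected for 3′ capture, and levels are compared for the same ligand only.

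**Figure D1:**
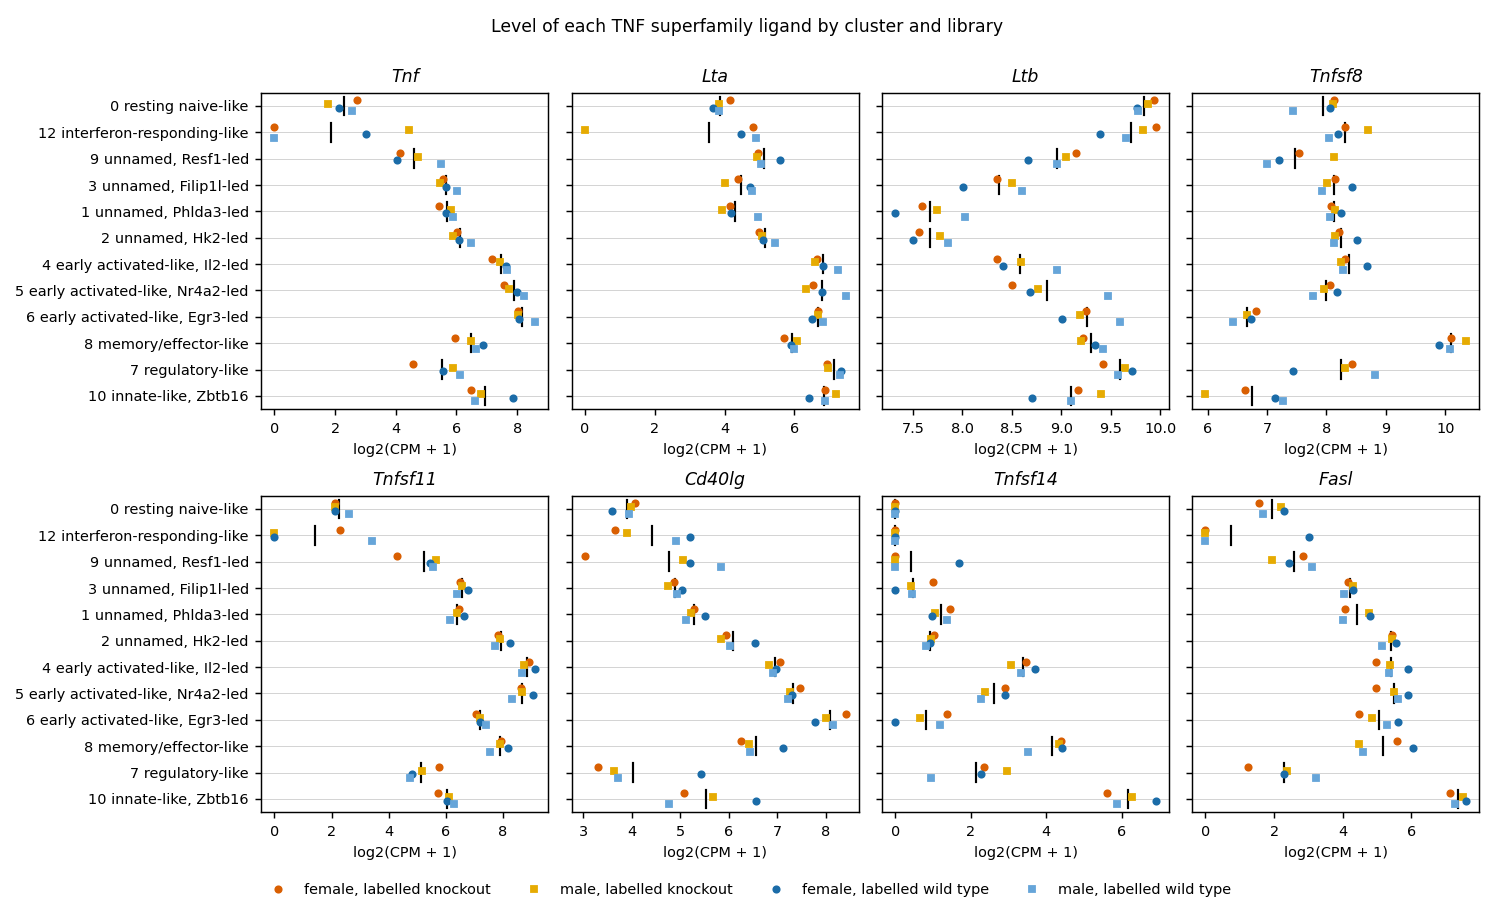
Level of each ligand, as log2(CPM + 1) on the horizontal axis, in each of 12 clusters, with a point for each library and a bar at their mean. Tnf, Tnfsf11 and Cd40lg sit lowest or near lowest in resting naive-like cells and high in the early activated-like clusters, Ltb is highest in resting naive-like cells, and Tnfsf8 peaks in memory or effector-like cells.

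Tnf, an inflammatory cytokine, had its highest mean in the Egr3-led cluster, followed by the Nr4a2-led and Il2-led clusters. It was 258, 257, 269 and 387 CPM in Egr3-led cells (293 ± 63.0, SD, n = 4), 187, 214, 252 and 301 CPM in Nr4a2-led cells (238 ± 49.6) and 142, 172, 195 and 202 CPM in Il2-led cells (178 ± 27.1). Egr3-led exceeded Nr4a2-led cells within each of the 4 libraries, and Nr4a2-led exceeded Il2-led cells within each as well, but the ranges of neighbours overlapped. Resting naive-like cells had 5.52, 2.37, 3.34 and 4.93 CPM, below every library of the early activated-like clusters. The 3 early activated-like clusters held 61.7% of all Tnf UMIs on average. Innate-like cells had 132 ± 67.7 CPM and regulatory-like cells 48.9 ± 19.8 CPM. In innate-like cells the female wild-type-labelled library had 233 CPM and the others 88.2 to 111 CPM.

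Tnfsf11, the ligand RANKL, was highest in the Il2-led cluster, with 475, 420, 559 and 401 CPM (463 ± 70.9, SD, n = 4). Nr4a2-led cells followed at 394, 402, 532 and 316 CPM (411 ± 89.5), with overlapping ranges. Every library of Nr4a2-led cells exceeded the highest library of the next cluster, led by Hk2 and Tmem97 (243 ± 38.8 CPM), a 1.69-fold step in the means. Egr3-led cells held less, at 131, 147, 146 and 167 CPM, so the early activated-like clusters differed among themselves in the opposite order to Tnf. Resting naive-like cells had 3.31, 3.39, 3.34 and 5.10 CPM, and regulatory-like cells 35.4 ± 12.8 CPM. At an equal depth of 2000 UMIs per cell, 51.0% of Il2-led cells had a Tnfsf11 UMI, against 0.762% of resting naive-like cells.

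Cd40lg, the helper ligand read by B cells, followed the order of Tnf with steps that did not overlap. Egr3-led cells had 340, 258, 218 and 282 CPM (274 ± 50.9, SD, n = 4), Nr4a2-led cells 176, 153, 157 and 149 CPM (159 ± 11.9) and Il2-led cells 133, 113, 124 and 120 CPM (123 ± 8.19). None of these ranges overlapped its neighbour, and the steps in the means were 1.73-fold and 1.296-fold. Resting naive-like cells had 14.01 ± 1.997 CPM. Regulatory-like cells were close to that level at 18.7 ± 15.8 CPM, with 42.2 CPM in the female wild-type-labelled library and 8.92 to 12.1 CPM in the others. The 3 early activated-like clusters held 58.9% of Cd40lg UMIs and regulatory-like cells 0.630%.

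Lta was spread more widely than its neighbour Tnf. Regulatory-like cells had 122, 124, 161 and 156 CPM (141 ± 20.8, SD, n = 4), the highest mean of any state, although the ranges overlapped with those of the innate-like (116 ± 24.8), Nr4a2-led (114 ± 43.2) and Il2-led clusters (114 ± 25.3). Egr3-led cells (101 ± 8.76 CPM) lay below regulatory-like cells in every library, with no overlap. At 2000 UMIs, 25.3% of regulatory-like cells (19.0% to 31.7% over libraries) had an Lta UMI and 7.83% a Tnf UMI. Summed B-cell markers were 96.6 to 246 CPM over 15 markers in regulatory-like cells and 40.6 to 66.3 CPM in resting naive-like cells, and their part in the Lta level was not tested. Memory or effector-like cells (59.8 ± 6.40 CPM) lay below Egr3-led cells with no overlap. Resting naive-like cells had 16.8, 13.4, 11.7 and 13.4 CPM.

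Ltb, the membrane partner of Lta, ran the other way. It was 982, 939, 871 and 876 CPM in resting naive-like cells (917 ± 53.1, SD, n = 4), where 82.0% of cells had an Ltb UMI at 2000 UMIs. Interferon-responding-like (844 ± 140 CPM) and regulatory-like cells (771 ± 65.4 CPM) followed, and the interferon-responding-like range overlapped the resting one. Within the early activated-like clusters Ltb was 620 ± 110 CPM in Egr3-led, 478 ± 156 CPM in Nr4a2-led and 386 ± 77.7 CPM in Il2-led cells. The lowest levels were in the clusters led by Phlda3 and Itm2a (206 ± 42.2 CPM) and by Hk2 and Tmem97 (204 ± 24.1 CPM), whose ranges overlapped.

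Tnfsf8, the ligand of CD30, was concentrated in memory or effector-like cells. It was 1089, 1309, 948 and 1078 CPM there (1106 ± 149, SD, n = 4), 3.296-fold above the next state with no overlap. Summed markers of NK or gamma-delta T cells were 96.8 to 486 CPM in that cluster (0 of 16 at 0) and B-cell markers 125 to 158 CPM, against 10.0 to 18.6 and 40.6 to 66.3 CPM in resting naive-like cells, and their part in the Tnfsf8 level was not tested. The cluster was 2.997% to 3.87% of CD4 T-like cells and held 12.7% of Tnfsf8 UMIs. Resting naive-like cells already had 278, 276, 267 and 172 CPM, close to the 336 ± 51.1 CPM of Il2-led cells. Egr3-led cells had the lowest mean, 112, 101, 105 and 85.5 CPM, with innate-like cells (113 ± 41.7 CPM) overlapping them.

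Fasl, the death ligand, and Tnfsf14, the ligand LIGHT, were highest in the innate-like Zbtb16 cluster, whose leading genes were Il4, Zbtb16, Xcl1, Trf and Cxcr6. Fasl was 137, 181, 193 and 152 CPM there (166 ± 25.7, SD, n = 4), 3.64-fold above Nr4a2-led cells (45.5 ± 11.97 CPM) with no overlap. Tnfsf14 was 47.9, 76.5, 119 and 57.2 CPM (75.1 ± 31.5), 4.31-fold above memory or effector-like cells (17.4 ± 4.74 CPM) with no overlap. The cluster was 0.903% to 2.27% of CD4 T-like cells and held 26.4% of the Tnfsf14 UMIs and 9.23% of the Fasl UMIs. Summed markers of NK or gamma-delta T cells were also high in it, at 332 to 817 CPM over 16 markers, 3 of them at 0, against 10.0 to 18.6 CPM in resting naive-like cells. Their part in the Fasl and Tnfsf14 levels was not tested. Tnfsf14 was sparse, with 155, 197, 81 and 146 UMIs in all CD4 T-like cells of a library and none in resting naive-like cells.

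The size of the step from resting naive-like to pooled early activated-like cells separated the ligands into groups. Tnfsf11 was 106-fold higher on average (67.1 to 145 over libraries) and Tnf 55.7-fold (32.1 to 84.5). Fasl followed at 14.8-fold (11.4 to 19.1), Cd40lg at 11.3-fold (10.1 to 13.4) and Lta at 7.97-fold (5.70 to 11.49). With 0 UMIs in resting cells, Tnfsf14 was at least 4.97-fold to 12.3-fold higher over libraries, taken against a limit of 3 UMIs per library. Tnfsf8 did not pass the 2-fold rule, with a log2 ratio of 0.16 ± 0.31 (SD, n = 4). Ltb had log2 ratios of -1.36, -1.12, -1.16 and -0.54, 2-fold lower in 3 of 4 libraries and therefore not called.

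**Figure D2:**
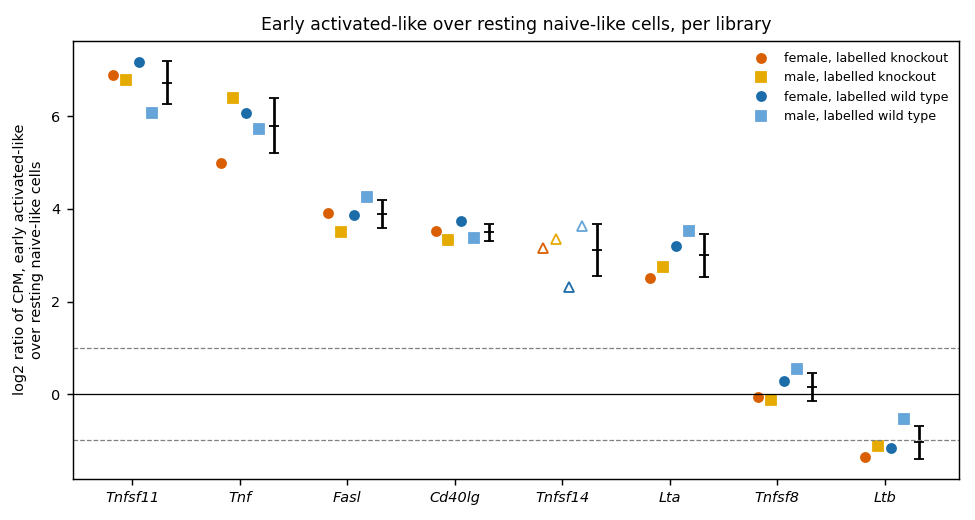
Log2 ratio of CPM in pooled early activated-like over resting naive-like cells, with a point for each library and the mean ± SD beside them; open triangles for Tnfsf14 are lower bounds and dashed lines mark a 2-fold change. Tnfsf11 and Tnf lie highest, Tnfsf8 straddles 0 and Ltb lies below 0 in all 4 libraries.

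Free RNA bears on the lowest of these levels. Droplets under 200 UMIs had 67.5 to 95.7 CPM of Tnf and 128 to 147 CPM of Tnfsf11. If 5% of a cell's UMIs came from them, at most 0.952% of cells at 2000 UMIs would have a Tnf UMI and 1.46% a Tnfsf11 UMI. The Tnfsf11 shares in resting naive-like cells, 0.610% to 1.13% over libraries, lay below that limit and are read as background. The Tnf shares there were 0.638%, 0.521%, 0.915% and 1.13%. Each limit is the largest over the libraries, and that of Tnf comes from the male wild-type-labelled library, whose share exceeded it. Droplets of the others had less Tnf (67.5, 80.4 and 77.3 CPM), so their own limits are lower, and their shares were not set against these. The Tnf and Tnfsf11 ratios therefore rest on resting levels at or near the background. The Cd40lg (2.53%) and Lta (2.44%) shares in resting cells exceeded their limits of 0.393% and 0.814%. The Fasl shares there were 0.455%, 0.967%, 1.22% and 0.308% against a limit of 0.419%, which comes from the female wild-type-labelled library (42.0 CPM in its droplets). Droplets of the male wild-type-labelled library, with the lowest share, had 24.2 CPM, so its own limit is lower. These shares are small, and the Fasl ratio also rests near the background. Among 63 cells with no T-cell UMIs (median 12065 UMIs, against 6728 in CD4 T-like cells), 17 had an Ltb UMI at equal depth (27.0%, exact 95% binomial interval 16.6% to 39.7%), 2 a Tnfsf8 UMI and 1 a Tnf UMI. The other 5 ligands had 0 of 63, with an exact upper bound of 5.69%. These 63 cells were from the cluster of other cells, where summed B-cell markers were 436 to 9917 CPM over libraries. Their shares are therefore not a measure of free RNA alone.

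Whether ligands were found in the same cell was read at an equal depth of 2000 UMIs, as the share of cells with a UMI of both over the share that independence would give. Over all CD4 T-like cells, 15 of 28 pairs were above independence in all 4 libraries, 1 was below, 10 were mixed and 2 had too few cells. Within early activated-like cells alone, 10 pairs were above, 1 below, 10 mixed and 7 had too few cells. No test was made. Pairs of other genes were not counted, so there is no background share and these counts are not read as particular to the ligands.

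Tnf and Lta were found together 2.28-fold more often than independence over all CD4 T-like cells (2.15 to 2.44 over libraries), in 100, 135, 48 and 154 cells. Within early activated-like cells the ratio was 1.46 (1.39 to 1.52), above 1 in all 4 libraries. Tnf and Cd40lg gave 2.30 (2.02 to 2.46) over all and 1.46 (1.35 to 1.55) within early activated-like cells. Within single clusters Tnf and Cd40lg were above independence in all 4 libraries of the Il2-led (1.48 to 1.85), Nr4a2-led (1.24 to 1.67) and Egr3-led clusters (1.09 to 1.28). Tnf and Lta were so in the Il2-led (1.501 to 1.78) and Nr4a2-led clusters (1.39 to 1.45), and libraries lay on both sides of 1 in the Egr3-led cluster (0.945 to 1.37).

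Tnf and Tnfsf11 differed in this respect. Their ratio was 1.56 (1.49 to 1.61) over all CD4 T-like cells and 1.00 within early activated-like cells, where libraries lay on both sides of 1. Tnfsf11 and Cd40lg gave 1.70 over all and 1.01 within the pooled early activated-like cells. Within single clusters Tnf and Tnfsf11 gave 0.972 to 1.14 (Il2-led), 1.02 to 1.07 (Nr4a2-led) and 0.850 to 1.04 (Egr3-led) over libraries. Within the Il2-led cluster the ratio of Tnfsf11 and Cd40lg was 1.06 to 1.23, above 1 in all 4 libraries, and libraries lay on both sides of 1 in the Nr4a2-led (0.965 to 1.13) and Egr3-led clusters (0.948 to 1.49). Fasl was found more often than independence with Cd40lg (2.06 over all, 1.501 within early activated-like cells), with Tnf (1.78 and 1.23) and with Tnfsf11 (1.62 and 1.25). Within single clusters libraries lay on both sides of 1 for Tnf and Fasl in Il2-led cells (0.823 to 1.49) and for Cd40lg and Fasl in Nr4a2-led cells (0.965 to 2.03), and both Tnf and Tnfsf11 had too few shared cells with Fasl in the Egr3-led cluster. Lta and Cd40lg gave 1.96 and 1.36, with libraries on both sides of 1 in the Egr3-led cluster (0.976 to 1.43).

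Ltb and Tnfsf11 were the pair below independence, at 0.752 (0.678 to 0.817) over all CD4 T-like cells and 0.919 (0.872 to 0.957) within early activated-like cells. The pair was below 1 in all 4 libraries of the Il2-led and Egr3-led clusters and on both sides of 1 in the Nr4a2-led cluster (0.938 to 1.09). The number of pairs below independence was 5 at a depth of 4000 UMIs, 3 at 1000 UMIs, 3 with another random seed and 1 to 3 with a library left out. The lymphotoxin partners Lta and Ltb were modestly above it, at 1.19 and 1.16, with libraries on both sides of 1 in the Il2-led (0.986 to 1.39) and Egr3-led clusters (0.771 to 1.13). Tnf and Ltb gave 1.05 over all and 1.22 within early activated-like cells. In memory or effector-like cells, where Tnfsf8 peaked, Tnfsf8 was above independence with Tnfsf11 (1.42) and Cd40lg (1.47) and below it with Ltb (0.858).

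**Figure D3:**
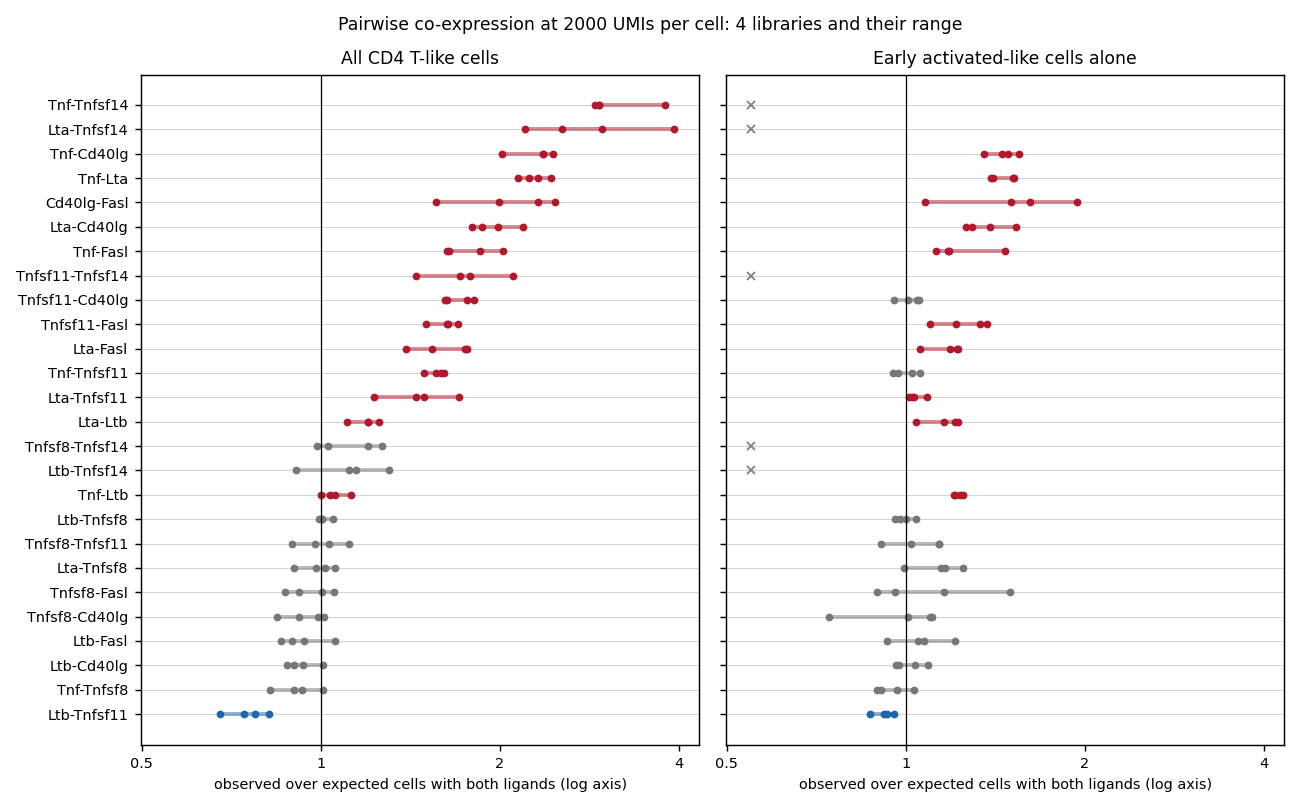
Observed over expected share of cells with a UMI of both ligands at 2000 UMIs per cell (log axis), over all CD4 T-like cells (left) and early activated-like cells alone (right), with a point for each library and a line over their range; red and blue mark pairs above and below independence in all 4, and a grey cross marks too few cells. Tnf with Lta and Tnf with Cd40lg lie above 1 in both, Tnf with Tnfsf11 lies around 1 (mean 1.00) within early activated-like cells, and Ltb with Tnfsf11 lies below 1.

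Across 9 states in 4 libraries, which share cells' libraries and depth and are described only, the genes whose level was most like that of a ligand were searched among 6765 genes (Pearson r over 36 points). The regulatory-like and innate-like clusters, where Lta, Fasl and Tnfsf14 had their highest means, had fewer than 50 cells in a library and did not enter, so likeness holds only over the other states. For Tnf they were Orai1 (0.971), a calcium channel subunit, Dusp2 (0.970), a MAP kinase phosphatase, and Ehd1 (0.970). For Tnfsf11 they were Map2k3 (0.975), a p38 kinase activator, Bhlhe40 (0.968) and Gfod1 (0.967). For Cd40lg they were Vsir (0.975), an inhibitory receptor, Gch1 (0.968) and Slc41a1 (0.959).

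The other ligands each had their own set. Lta was most like Cd82 (0.937), Mbp (0.927) and Srrm2 (0.922), and Ltb like Slco3a1 (0.949), Smad7 (0.946) and Malat1 (0.939). Tnfsf8 was most like Ptger2 (0.929), a prostaglandin E2 receptor, Gnaq (0.893) and Ttc39b (0.886). Tnfsf14 was most like Plscr1 (0.926), Il2 (0.915) and Adora2a (0.885), and Fasl like Gramd1b (0.931), Hivep3 (0.916) and Tnfsf11 (0.915). Among the ligands themselves r was 0.913 for Tnf and Cd40lg, 0.906 for Tnf and Tnfsf11, 0.841 for Tnf and Lta, and -0.442 for Ltb and Tnfsf11.

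The comparison of genotype labels asked whether ligand levels differed with the label. Over all CD4 T-like cells 1 of the 8 ligands, Tnf, was called (edgeR, adjusted p under 0.05), against 0.734% of all 12531 genes (92 genes, 71 of them higher and 21 lower under the knockout label). With no sex term 13 genes were called. A fit on 3 libraries cannot hold both terms, so every fit with a library left out also had no sex term and left 1 library under one label, whose spread was assumed to be that of the other label. Leaving out each library in turn in this way gave 37, 44, 221 and 40 called genes, with 19 higher and 21 lower without the male wild-type-labelled library. From here on, ligand and receptor CPM compared between genotype labels were also scaled by TMM factors (edgeR), so they differ slightly from the CPM by cluster above. Tnf was 73.1 and 85.4 CPM in the female and male knockout-labelled libraries and 104 and 119 CPM in those labelled wild type, without overlap. On the log2 scale the difference was -0.49 (SE 0.08; edgeR with sex as a term, adjusted p 0.0195). It was -0.51 between the female libraries and -0.48 between the male libraries. The call was lost with no sex term (edgeR adjusted p 0.197). With a library also left out of that unpaired fit, Tnf did not pass without the female knockout-labelled library (-0.39, adjusted p 0.487) or the male wild-type-labelled library (-0.39, adjusted p 0.172), and passed without the female wild-type-labelled library (-0.59, adjusted p 0.0372) or the male knockout-labelled library (-0.61, adjusted p 0.0316). The effect of leaving out a library with the sex term kept could not be tested. Over all the alternatives tried the difference stayed between -0.61 and -0.39. Depth per cell was also lower in the knockout-labelled libraries; with every cell thinned to 2000 UMIs and equal cell numbers the log2 fold change was -0.51 (edgeR, adjusted p 0.0025). Early activated-like cells, which held most Tnf UMIs, were 24.9%, 26.5%, 30.04% and 27.7% of CD4 T-like cells, and summed myeloid markers (17 genes) were 165, 144, 134 and 120 CPM. Both moved with the label, and their part in the Tnf difference was not tested.

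Lta, next to Tnf in the genome, had 46.4 and 45.6 CPM in the knockout-labelled libraries and 53.8 and 71.7 CPM in those labelled wild type. The groups did not overlap, but the male wild-type-labelled library set most of the gap. The log2 fold change of -0.45 (SE 0.10) did not pass (edgeR, adjusted p 0.117). It passed under 4 other settings with all 4 libraries, among them equal depth and cell number (-0.49, adjusted p 0.0323), and in the unpaired fit without the female wild-type-labelled library (-0.64, adjusted p 0.0106), which has 1 wild-type-labelled library. Over the alternatives its adjusted p ran from 0.00043 to 0.61, and its log2 difference was -0.22 in the unpaired fit without the male wild-type-labelled library.

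The remaining ligands were not called between genotype labels. Cd40lg had 69.5, 65.0, 81.9 and 73.1 CPM, lower in both knockout-labelled libraries (log2 -0.20, unadjusted p 0.0259, edgeR adjusted p 0.522). Tnfsf11 had 170, 176, 239 and 171 CPM and Fasl 23.8, 29.3, 37.6 and 26.6 CPM, both with the female wild-type-labelled library above the other libraries. Ltb had 403, 435, 375 and 499 CPM, Tnfsf8 297, 299, 336 and 283 CPM and Tnfsf14 4.51, 4.10, 5.25 and 3.305 CPM, with overlapping groups. Their edgeR adjusted p were 0.688 (Tnfsf11), 0.808 (Fasl), 0.947 (Ltb), 0.948 (Tnfsf8) and 0.960 (Tnfsf14).

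**Figure D4:**
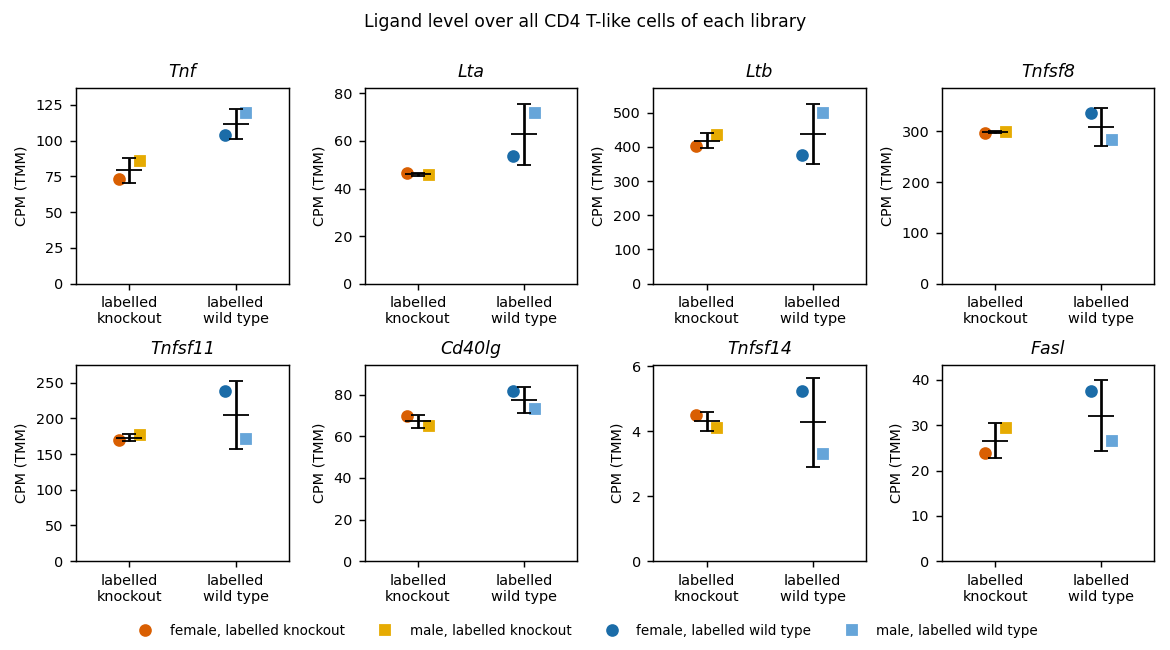
Level of each ligand (CPM with TMM scaling) in all CD4 T-like cells of each of the 4 libraries, by genotype label and sex, with the mean ± SD of the 2 libraries of a label. For Tnf both knockout-labelled libraries (73.1 and 85.4 CPM) lie below both labelled wild type (104 and 119 CPM).

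Shares of cells at equal depth gave the same split between labels for Tnf and Lta. A Tnf UMI was found in 10.6%, 11.6%, 13.2% and 14.2% of CD4 T-like cells and an Lta UMI in 7.20%, 7.71%, 9.09% and 9.83%. Both knockout-labelled libraries lay below both labelled wild type, by 2.59 and 2.00 percentage points in the means. The exact two-sided permutation p was 0.3333 for each, the smallest that 2 libraries against 2 allow. Tnfsf11 (19.3%, 19.1%, 24.7% and 19.4%) and Cd40lg (8.85%, 9.26%, 10.2% and 9.59%) had the same exact p. The Tnfsf11 difference in the means, -2.83 percentage points here, was 1.49 at a depth of 4000 UMIs. Ltb, Tnfsf8, Tnfsf14 and Fasl overlapped between labels.

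The same comparison within each state had 6 ligand calls over 9 states with at least 50 cells in every library. Of all genes tested, edgeR called 0.537% in the resting naive-like cluster, 0.572% in the Phlda3 and Itm2a cluster, 0.409% in the Hk2 and Tmem97 cluster and 0.467% in the Filip1l and Trps1 cluster. It called 1.07% in the Il2-led, 0.108% in the Nr4a2-led, 0.503% in the Egr3-led, 0.641% in the memory or effector-like and 0.368% in the Resf1 and Trat1 cluster. These shares depended on the settings. With doublets removed, called genes went from 9 to 75 in the Nr4a2-led, 53 to 9 in the resting naive-like and 93 to 84 in the Il2-led cluster. With no sex term they were 4, 3 and 7. The Il2-led cluster had 3 of the 6 calls, all lower in the knockout-labelled libraries.

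In Il2-led cells Tnf, in TMM-scaled CPM, was 139 and 168 in the knockout-labelled libraries and 200 and 209 in those labelled wild type (log2 -0.41, edgeR adjusted p 0.00266). Lta was 96.3 and 92.5 against 115 and 155 CPM (log2 -0.54, edgeR adjusted p 7.1e-05). Ltb was 318 and 375 against 347 and 514 CPM, with overlapping groups (log2 -0.30, edgeR adjusted p 0.0273). Without the male wild-type-labelled library and the sex term the Ltb difference was 0.0020.

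Lta was also called in the Phlda3 and Itm2a cluster (16.6 and 14.1 against 17.0 and 31.6 CPM, log2 -0.76, edgeR adjusted p 2.9e-04) and in the Filip1l and Trps1 cluster (19.6 and 14.8 against 26.1 and 27.8 CPM, log2 -0.70, edgeR adjusted p 0.0302). In the Phlda3 and Itm2a cluster the difference was -0.15 without the male wild-type-labelled library and the sex term. Tnfsf8 was called higher in the Resf1 and Trat1 cluster (184 and 276 against 151 and 134 CPM, log2 0.72, edgeR adjusted p 0.0306). All 6 calls were lost with no sex term and all 4 libraries. They were also absent from the unpaired fits without either knockout-labelled library, where the part of the library and that of the missing sex term cannot be told apart. The unpaired fit without the female wild-type-labelled library, with its spread taken from the knockout-labelled pair, had 17 ligand calls.

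By the edgeR fit Tnf was lower in the knockout-labelled libraries in 9 of 9 states, by log2 differences from -0.61 to -0.17, with 6 at an unadjusted p under 0.05 and 1 called. Between the female libraries alone it was higher under the knockout label in resting naive-like cells (5.44 against 3.34 CPM, from 20 and 6 UMIs). The same held in the Resf1 and Trat1 cluster (16.4 against 16.0 CPM, from 16 and 7 UMIs). States are parts of the same 4 libraries, and the share of all genes with the same sign in every state was not counted. Lta was lower in 8 of 9 states, from -0.85 to 0.12. Tnfsf11 was lower in 7 of 9, Ltb and Cd40lg in 6 of 9 and Tnfsf8 in 5 of 9, and Fasl in 4 of 8 states where it could be tested. Tnfsf14 was tested in 4 states, lower in 2.

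**Figure D5:**
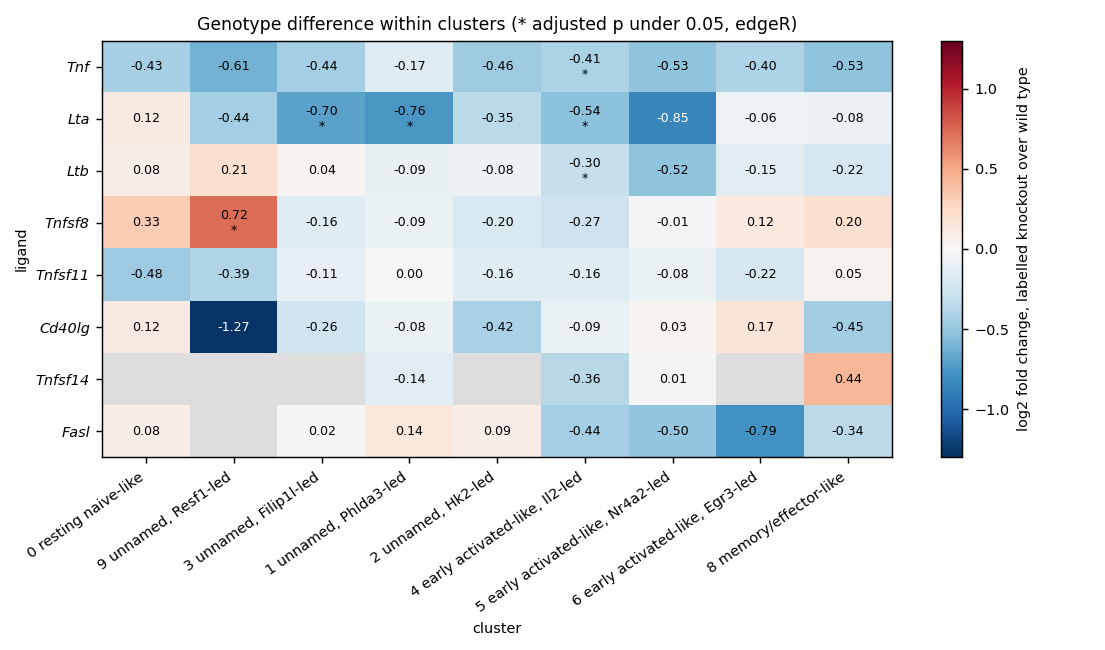
Log2 fold change of each ligand in knockout-labelled libraries over those labelled wild type within each of 9 states, as colour and printed value; a star marks an adjusted p under 0.05 by edgeR and grey a ligand that was not tested. Tnf is below 0 in all 9 states, and the 3 starred ligands of the Il2-led cluster are all below 0.

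Sex, male over female in the same fit, called none of the 8 ligands (edgeR, adjusted p under 0.05), against 0.415% of all genes tested. At an unadjusted p under 0.05, 2 ligands were higher in the male libraries: Ltb by 0.26 on the log2 scale (p 0.0150, edgeR adjusted p 0.517) and Tnf by 0.21 (p 0.0202, edgeR adjusted p 0.583). Of all 12531 genes tested, 814 passed that unadjusted threshold for sex, in either direction. DESeq2 also called none.

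Other genes of the TNF pathway were counted from a fixed list. Between genotype labels, edgeR called 2 of 14 tested TNF receptors outside the receptors of the 8 ligands, both higher in the knockout-labelled libraries, against 0.734% of all genes tested. They were the costimulatory receptors Tnfrsf4 (OX40; 464 and 450 against 295 and 325 CPM, log2 0.56, SE 0.08, edgeR adjusted p 0.0146) and Tnfrsf18 (GITR; 310 and 310 against 225 and 239 CPM, log2 0.42, SE 0.08, edgeR adjusted p 0.0407). Regulatory-like cells had 2524 CPM of Tnfrsf4 and 1363 CPM of Tnfrsf18 on average, the highest means of any state, and were 4.90%, 4.87%, 2.29% and 2.97% of CD4 T-like cells, a share that moved with the label in the direction of both calls. Within the 9 states tested, none of them regulatory-like, the log2 difference was 0.32 to 0.62 for Tnfrsf4, called by edgeR in 6, and 0.14 to 0.55 for Tnfrsf18, called in 1. Both calls over all CD4 T-like cells were lost with no sex term, and in the unpaired fits without either knockout-labelled library, with adjusted p from 0.0626 to 0.327 in these fits. EdgeR and DESeq2 called 0 of the other 59 genes tested (4 other family ligands, 5 receptors of the 8 ligands, 25 adaptors and effectors, 11 ligand processing and mRNA decay genes and 14 NF-kB subunits and inhibitors), with 2 at an unadjusted p under 0.05 by edgeR. Among all 12531 genes, 997 had an unadjusted p under 0.05 in that edgeR fit.

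From resting naive-like to early activated-like cells, 7 of the 14 NF-kB genes were at least 2-fold higher in all 4 libraries and 0 lower, with a median log2 ratio of 1.17 over the group against -0.23 over all genes with a ratio. Nfkb1 (3.28) and Rel (2.35) were among them, as was Nfkbid, one of the markers that named 2 of the early activated-like clusters, so its ratio (5.89) was fixed in direction by the naming. Of the receptors of the 8 ligands Tnfrsf1b, which binds Tnf and Lta, was higher (1.78), and of the other TNF receptors Tnfrsf9 (3.46) and Tnfrsf4 (3.11), both on the marker list used for naming, were higher while 4 of 14 were lower. Among 25 adaptors and effectors 3 were higher (Traf1, Traf3 and Cflar) and 7 lower. The counts for the other receptors and for the adaptors are near the 12.9% higher and 21.5% lower of all genes and show nothing particular to those groups. Of the other family ligands Tnfsf10, which encodes TRAIL, was lower (-3.51), and it was the 1 of 10 with a ratio.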

How the data were processed

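For each library the authors deposited raw UMI counts per gene and barcode, as a matrix of all barcodes; Cell Ranger 6.0.2 and mm10 are given per the submitters' processing notes. Reference coordinates are GENCODE M21 (GRCm38). Members, gene lists and tests were chosen with earlier results of these data known.

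Cells with at least 2000 UMIs, 500 genes and at most 10% mitochondrial UMIs were scaled to 10000 UMIs, logged, centred within each library and clustered (scanpy 1.11.5, leidenalg 0.10.2, 2000 variable genes, 30 components, resolution 1) without the ligands. A cluster was named from at least 3 fixed markers among its 30 leading genes, with at least 1 among the first 10. Setting aside clusters with at least 4 markers of another class, and naming a cluster as mostly marked doublets, were rules chosen after the data were seen. The automatic threshold of scrublet marked 3 of 6178 cells in the female knockout-labelled library, so the highest scores were marked at 0.8% per 1000 cells in every library (305, 342, 26 and 167 cells); marked cells were kept and removed only as an alternative.

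Counts were summed per library over CD4 T-like cells (33529962, 46959972, 15621436 and 45952374 UMIs) or over a state, and tested in edgeR 4.0.16 (R 4.3.3; TMM, filterByExpr, quasi-likelihood, terms genotype and sex, Benjamini-Hochberg over all genes tested). DESeq2 1.42.0 was an alternative. For shares and pairs every cell was thinned to 2000 UMIs. A pair was called only with the same sign in all 4 libraries and at least 5 cells expected or observed in each. All 8 ligands were named, as were pathway genes called between genotype labels (at most 10) and the 3 genes most alike in pattern (at least 10 CPM, log2 of CPM plus 1). The 5 leading genes were named for the early activated-like and innate-like clusters, and fewer leading or marker genes for the others. Receptor, ligand and NF-kB genes named for their step on activation were chosen after their values were seen. Intervals and the limit of 3 counts cover counting error only. The fit was checked on counts simulated from the same sums, with 200 changed genes. It recovered 54% of them at a log2 change of 0.5 and 83.5% at a log2 change of 1. Python 3.11.15, numpy 2.4.6 and scipy 1.17.1 were used.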

Additional observations from a re-analysis of the deposited data

Results flagged for a closer look

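For 5 ligands the female and the male pair of libraries moved in opposite directions between genotype labels, labelled knockout over labelled wild type. Each value sets 1 library against 1, and with 4 libraries the difference between the sexes was not tested. The log2 fold change was 0.10 in females and -0.20 in males for Ltb, and -0.18 and 0.08 for Tnfsf8. It was -0.49 and 0.04 for Tnfsf11, -0.22 and 0.30 for Tnfsf14, and -0.66 and 0.14 for Fasl. In the 2 ligands with the widest gap, Tnfsf11 and Fasl, the female library labelled wild type, which has the fewest cells, was the highest of the 4 libraries.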

How the results depend on the processing

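The sex term pairs the female and the male libraries, so the fit with no sex term is the unpaired one. A fit of 3 libraries cannot hold both terms: every edgeR fit with a library left out also dropped the sex term (for sex, the genotype term) and took the spread of the lone library from the other group, so its effect cannot be told apart from that of the missing term. The number of ligands called between genotype labels (1) became 2 with no filter on low counts, doublets removed, free RNA subtracted, or equal cell number and depth, 0 with no sex term, and 0 to 2 when a library was left out; the Tnf difference stayed negative in each. Ligand calls over states (6) became 10 with no filter, 0 with no sex term, and 0 to 17 when a library was left out. Clusters formed without the called genes matched 6 of the 9 states, not the Il2-led, Hk2 and Tmem97, and Resf1 and Trat1 clusters; those 6 states held 2 of the 6 calls and had 5 calls there, Lta in the Filip1l and Trps1 cluster being called both times and Lta in the Phlda3 and Itm2a cluster not (-0.48, edgeR adjusted p 0.340). The other 4 calls were not retested. For sex, ligand calls (0) were 0 to 3 when a library was left out. Ligands 2-fold lower in early activated-like cells (0) were 0 to 1 when a library was left out. Pairs below independence (1) were 5 at depth 4000, 3 at depth 1000, 3 with another random seed and 1 to 3 when a library was left out. All genes called between labels (92) were 28 with DESeq2, 276 with no filter on low counts, 13 with no sex term, 236 with doublets removed, 238 with free RNA subtracted, 155 over all kept cells, and 37 to 221 when a library was left out.

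Some values changed sign; beyond the dropped terms, the cause was not tested. Between genotype labels, Ltb was 0.023 and Tnfsf8 0.026 (log2) with library size alone, and 0.0069 and 0.019 at equal cell number and depth. With a library left out, log2 differences ran from -0.26 to 0.16 for Ltb, -0.17 to 0.074 for Tnfsf8, -0.46 to 0.014 for Tnfsf11, -0.29 to 0.37 for Tnfsf14 (also -0.0005) and -0.57 to 0.0020 for Ltb in Il2-led cells. Tnfsf11 at -0.46 passed (edgeR adjusted p 0.0237) with both knockout-labelled libraries against the female library labelled wild type alone. For sex, Fasl was 0.019 at equal cell number and depth. With a library left out, which leaves the labels unbalanced between the sexes in a fit with no genotype term, Tnf ran from -0.040 to 0.49 (also -0.023), Lta from -0.13 to 0.52, Tnfsf11 from -0.46 to 0.034 and Fasl from -0.43 to 0.23. Differences in shares of cells, in percentage points, were for Ltb -5.16 at depth 4000, -5.82 unthinned and -3.79 to 5.75 with a library left out. They were for Tnfsf8 -0.154, -7.14 and -2.52 to 3.57 in that order. Tnfsf11 was 1.49 at depth 4000, and Tnfsf14 was -0.287 unthinned, -0.0663 with another seed and -0.0193 to 0.232 with a library left out. At depth 4000, 1921, 894, 112 and 137 shallower cells were left out. Within single clusters the log2 ratio of a pair turned for Ltb with Tnfsf11 (Phlda3 and Itm2a cluster, 0.0018), Tnf with Tnfsf11 (Hk2 and Tmem97 cluster, -0.24, and Egr3-led, -0.069), Tnfsf11 with Fasl (Hk2 and Tmem97 cluster, -0.083), Lta with Ltb (Egr3-led, -0.023) and Tnf with Ltb (memory or effector-like, -0.073). Tnfsf14, at 81 to 197 UMIs a library, is the ligand most limited by depth.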

Other observations

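The number of different ligands seen in a cell at 2000 UMIs also varied by state. It averaged 1.39 ± 0.05 (SD, n = 4) over all CD4 T-like cells, 1.87 ± 0.13 in early activated-like cells and 1.28 ± 0.05 in resting naive-like cells. A share of 10.1% of early activated-like cells (7.40% to 12.2% over libraries) carried UMIs of 4 or more of the 8 ligands, and 0% of resting naive-like cells did. None of the ligands was seen in 19.0% of CD4 T-like cells at this depth. The 5 cells with the most Tnfsf14 UMIs held 10.97% and 12.2% of them in the female and male libraries labelled knockout, and 37.0% (of 81 UMIs) and 19.2% in those labelled wild type.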
